A study of Homo sapiens with 12 samples.

Results

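The genes described here are 10 regulators of mitochondrial apoptosis from the BCL2 family, namely BCL2, BCL2L1, MCL1, BCL2A1, BCL2L11, PMAIP1, BID, BIK, BMF and BAK1. They were chosen by symbol as a gene family, with earlier results of these data known, and are 10 of the 59427 genes in the deposited table. RNA-seq was used to compare 4 human cell lines that descend from the breast epithelial line MCF10A, all cultured in the same horse serum medium with insulin, EGF, cholera toxin and hydrocortisone. MCF10A itself is immortalised and non-tumorigenic. MCF10AT1 carries an introduced HRAS with the activating G12V change, MCF10DCIS stands for ductal carcinoma in situ and MCF10CA1a for metastatic disease. The latter lines were established from xenografts of HRAS-transformed MCF10A cells, so all 3 derived lines share that background. Each stage is 1 line, and differences between stages and differences between lines cannot be told apart. The labels list 3 libraries per line, but the values analysed are the authors' mean TPM (a transcript level corrected for gene length and scaled to the same total in every library) of each line. No value therefore has an error, no difference was tested, and the depth of the libraries is unknown.

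BCL2 family proteins decide whether the outer mitochondrial membrane becomes permeable and releases cytochrome c, which starts the caspase cascade. The effectors BAX and BAK1 form the pores, the anti-apoptotic proteins BCL2, BCL-XL (encoded by BCL2L1), MCL1 and BFL-1 (BCL2A1) hold them in check, and the BH3-only proteins BIM (BCL2L11), NOXA (PMAIP1), BID, BIK and BMF carry stress signals to both. In breast epithelium this pathway acts when cells lose contact with the basement membrane, and BIM and BMF are known mediators of that form of death. RAS signalling through ERK is known to lower BIM protein and to stabilise MCL1 protein, neither of which an RNA measurement shows.

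The BH3 segment, short for BCL2 homology 3, is shown because BH3-only proteins bind their partners through it and because it recurs across the roles in the family. Its core is a leucine followed after 3 residues by a small residue, glycine or alanine, and an aspartate. This pattern was found once in the annotated coding sequence of 9 of the 10 members and was not found in BCL2A1. The windows below hold 12 codons each, read 5′ to 3′ on the coding strand from GENCODE release 29 transcripts, and capitals mark the codon of the leucine and the codons of the small residue and the aspartate.
BCL2: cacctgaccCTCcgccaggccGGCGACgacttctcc
BCL2L1: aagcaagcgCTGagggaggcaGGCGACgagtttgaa
MCL1: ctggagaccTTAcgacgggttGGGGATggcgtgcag
BCL2L11: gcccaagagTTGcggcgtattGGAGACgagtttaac
PMAIP1: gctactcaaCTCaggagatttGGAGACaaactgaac
BID: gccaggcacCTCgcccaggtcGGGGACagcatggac
BIK: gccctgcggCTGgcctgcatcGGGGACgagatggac
BMF: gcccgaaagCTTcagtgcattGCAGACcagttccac
BAK1: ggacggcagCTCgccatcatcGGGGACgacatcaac
The small residue is glycine in 8 of these windows and alanine in BMF, encoded by GCA. The windows of BCL2 (chr18:63318352-63318387, minus strand, exon 2 of 3) and BCL2L1 (chr20:31721925-31721960, minus strand, exon 2 of 3) come first, and that of MCL1 lies at chr1:150578868-150578903 on the minus strand in exon 1 of 3. Those of the BH3-only genes lie at chr2:111150094-111150129 in exon 4 of 5 of BCL2L11, at chr18:59902664-59902699 in exon 2 of 2 of PMAIP1 and at chr22:43127707-43127742 in exon 3 of 5 of BIK, all on the plus strand. On the minus strand they lie at chr22:17739418-17739453 in exon 4 of 6 of BID and at chr15:40104198-40104233 in exon 4 of 5 of BMF. The window of the effector BAK1 lies at chr6:33575390-33575425 on the minus strand in exon 4 of 6. All positions are on GRCh38.

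Some facts of the whole table bear on every value below. Structural and small non-coding RNAs took between 57.7% and 66.0% of the TPM, most in MCF10DCIS, which lowers the deposited TPM of all remaining genes there by a common factor. Levels are therefore also given as rescaled TPM, in which each line sums to 1000000 after leaving out those RNAs, ribosomal protein genes and mitochondrially encoded genes. HRAS stood at 50.8 TPM in MCF10A and at 126, 276 and 312 TPM in MCF10AT1, MCF10DCIS and MCF10CA1a. Of 5 epithelial markers, all reached 1 TPM in every line, whereas none of 6 leukocyte markers did in any line. By the rule of size explained below, EPCAM, KRT8 and CDH1 were lower than in MCF10A in MCF10AT1, KRT8 and CDH1 in MCF10DCIS, and KRT5 and CDH1 in MCF10CA1a. On rescaled TPM KRT8 was not counted in MCF10DCIS (-0.89). No epithelial marker was counted as higher. In MCF10CA1a against MCF10A, EPCAM (148 and 86.1 TPM) and KRT18 (977 and 766 TPM) were higher short of the rule. KRT8 (661 and 942 TPM) was lower there, also short of it. The summed epithelial markers were at 2711 TPM in MCF10A and between 1571 and 1964 TPM in the derived lines. COL1A1, 1 of 4 fibroblast markers, was at 0.674 TPM in MCF10A and counted as higher in all 3 derived lines (2.58 to 3.22 TPM). PECAM1 among 3 endothelial genes reached at most 3.79 TPM, in MCF10A, and was counted as lower in MCF10AT1 (0.866 TPM). On rescaled TPM it was counted as lower in MCF10CA1a too (-1.01). The part of these markers in the results below was not tested. In bulk RNA, fewer cells that express a gene and less of its RNA per cell cannot be told apart.

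Among the anti-apoptotic genes, MCL1 was higher in all 3 derived lines and BCL2L1 lower, though by little in MCF10AT1, whereas BCL2 and BCL2A1 were close to absent. MCL1, a short-lived guardian of mitochondria, was at 43.9 TPM in MCF10A, and in the derived lines at 74.4 TPM (MCF10AT1), 135 TPM (MCF10DCIS) and 78.8 TPM (MCF10CA1a). MCF10DCIS stood above the other lines, and MCF10AT1 and MCF10CA1a lay next to each other. BCL2L1, whose main product BCL-XL is the long-lived guardian, had 53.1 TPM in MCF10A, followed by 45.9 TPM in MCF10AT1, 41.1 TPM in MCF10CA1a and 25.9 TPM in MCF10DCIS. The order of the lines was the reverse of that for MCL1, with MCF10DCIS lowest and MCF10A highest. BCL2 itself, the founding member of the family, was listed at 0.234 TPM in MCF10A and at 0.589, 0.367 and 0.746 TPM in MCF10AT1, MCF10DCIS and MCF10CA1a. BCL2A1, best known from blood cells as an NF-kB target, was listed at 0.0536, 0, 0.168 and 0.205 TPM. Neither gene reached 1 TPM in any line, and no fold change is given for them.

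**Figure D1:**
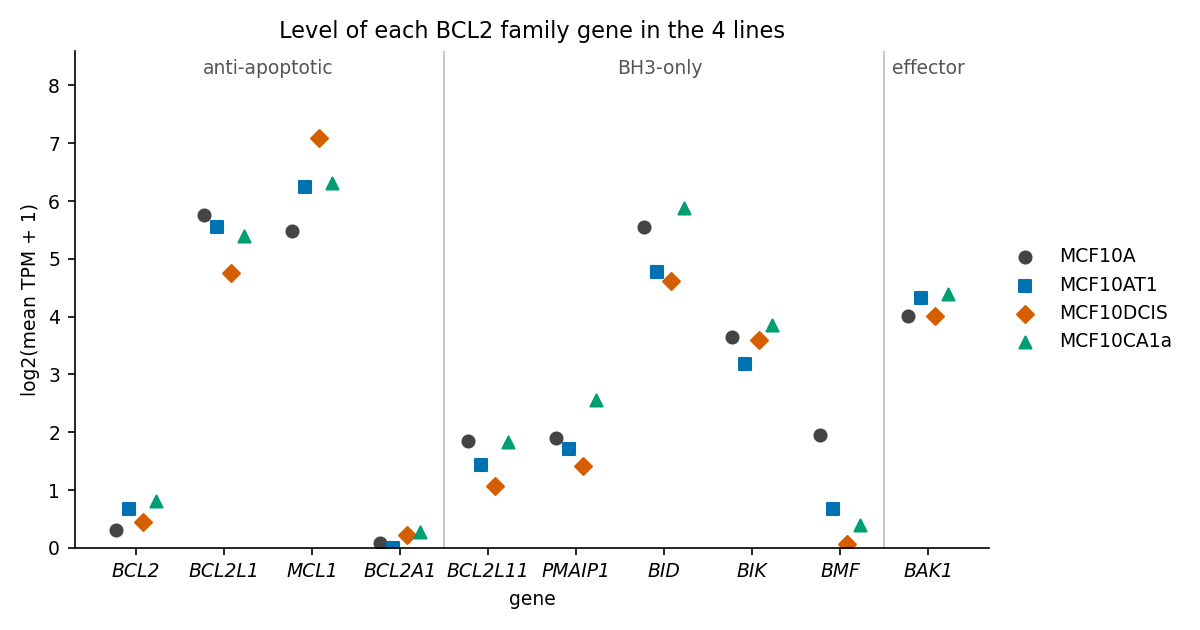
Level of the 10 BCL2 family genes in the 4 lines, as log2 of the authors' mean TPM plus 1 (1 point per line, no error available), grouped by role. MCL1 is highest and BCL2L1, BCL2L11, PMAIP1, BID, BMF and BAK1 are lowest in MCF10DCIS. On rescaled TPM, not shown here, BID is lowest in MCF10AT1 and BAK1 in MCF10A. BCL2 and BCL2A1 lie below 1 TPM in every line.

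The 5 BH3-only members differed widely in level and did not move as a block. BID, which links death receptors to mitochondria once caspase-8 has cut it, was the most abundant of them, with 57.9 TPM in MCF10CA1a and 46.0 TPM in MCF10A, but 26.2 TPM in MCF10AT1 and 23.6 TPM in MCF10DCIS. The lines thus formed a high pair and a low pair. BIK, which resides mainly at the endoplasmic reticulum, was at 11.5, 8.06, 11.1 and 13.5 TPM in MCF10A, MCF10AT1, MCF10DCIS and MCF10CA1a. PMAIP1, whose product NOXA binds MCL1 and marks it for degradation, was at 2.75, 2.28, 1.68 and 4.92 TPM in that order. MCF10CA1a held the most of both genes.

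BMF, whose product is held on myosin motors by a dynein light chain and released on loss of attachment, showed the widest range of all 10 genes. Its level was 2.86 TPM in MCF10A against 0.593 TPM in MCF10AT1, 0.309 TPM in MCF10CA1a and 0.0491 TPM in MCF10DCIS, so that of the 4 lines MCF10A alone exceeded 1 TPM. BCL2L11, whose product BIM binds every anti-apoptotic protein of the family, was at 2.60 TPM in MCF10A and 2.57 TPM in MCF10CA1a, which were nearly equal, at 1.69 TPM in MCF10AT1 and lowest in MCF10DCIS at 1.11 TPM. The BCL2L11 value carries a caveat, because 727 of its 6658 annotated exon bases are shared with MIR4435-2HG, a non-coding RNA on the opposite strand with 81.6 to 115 TPM, and the strand setting of the counting is not given in the sources. The effector BAK1, a resident of the outer membrane, varied least among the genes above 1 TPM, with 15.2, 19.1, 15.1 and 20.0 TPM. Its 2 pseudogenes in the table, BAK1P1 and BAK1P2, were listed at 0.153 TPM or less.

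The span of each gene over the lines, the highest minus the lowest log2(TPM + 1), was 1.88 for BMF, 1.60 for MCL1, 1.26 for BID, 1.14 for PMAIP1 and 1.01 for BCL2L1. It was 0.77 for BCL2L11, 0.68 for BIK and 0.38 for BAK1. The median span of all 13108 genes that reached 1 TPM in at least 1 line was 0.74, so BIK and BAK1 varied less than the median gene. BMF and MCL1 varied more than 92.8% and 89.3% of those genes.

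In MCF10AT1 against MCF10A, BMF was the only member lower by the rule of size, and none was higher. This rule counts a gene when log2(TPM + 1) differs by at least 1 between lines, which is a 2-fold difference of TPM + 1, and it was applied to the 8 members and the 13108 genes in all that reached 1 TPM in some line. BCL2 and BCL2A1 did not. BMF reached 1 TPM in MCF10A alone, so in any comparison with MCF10A it could be counted only as lower. Of all genes, 3.39% were higher and 5.87% lower by the same rule. On the rescaled scale the counts were again 0 and 1 member, beside 5.85% of all genes higher and 6.64% lower. BMF differed by -1.28 and MCL1 by 0.75, and BID was the next lowest at -0.79. The remaining members lay between -0.46 (BIK) and 0.31 (BAK1), with BCL2L1 at -0.20. The median of the 8 members was -0.31 and that of all genes -0.066. On rescaled TPM BCL2L1 differed by -0.077 and under quantile normalization by -0.030.

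In MCF10DCIS against MCF10A, MCL1 was higher and BCL2L1 and BMF were lower by the rule of size. Of all genes, 3.56% were higher and 14.8% lower. The MCL1 difference was 1.60, a 3.07-fold higher TPM, and 98.7% of the tested genes had a lower difference. BMF differed by -1.88 and BCL2L1 by -1.01. The count of BCL2L1 depended on the scale. On rescaled TPM, where 7.85% of all genes were higher and 10.3% lower, MCL1 differed by 1.98 and BMF by -2.98, but BCL2L1 by -0.66 and was no longer counted. BID (-0.94), BCL2L11 (-0.77) and PMAIP1 (-0.48) were lower without reaching the rule, beside a median of all genes of -0.38. BIK differed by -0.05 and BAK1 by -0.01, and both had a positive difference after rescaling (0.31 and 0.36). The median of the 8 members was -0.63.

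In MCF10CA1a against MCF10A, BMF was again the only member counted, at -1.56. Of all genes, 5.97% were higher and 7.14% lower, and on rescaled TPM 9.47% and 7.77%, with the same single member counted. MCL1 differed by 0.83 and PMAIP1 by 0.66, short of the rule, and rescaled TPM gave 0.99 and 0.90. BID (0.32), BIK (0.22) and BAK1 (0.37) were slightly higher and BCL2L1 (-0.36) slightly lower. BCL2L11 differed by -0.01, and its sign turned under rescaling. The median of the members was 0.27, beside -0.074 for all genes. These 3 comparisons share MCF10A, so its own level enters each of them, and a low BMF in the derived lines is the same statement as a high BMF in MCF10A.

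**Figure D2:**
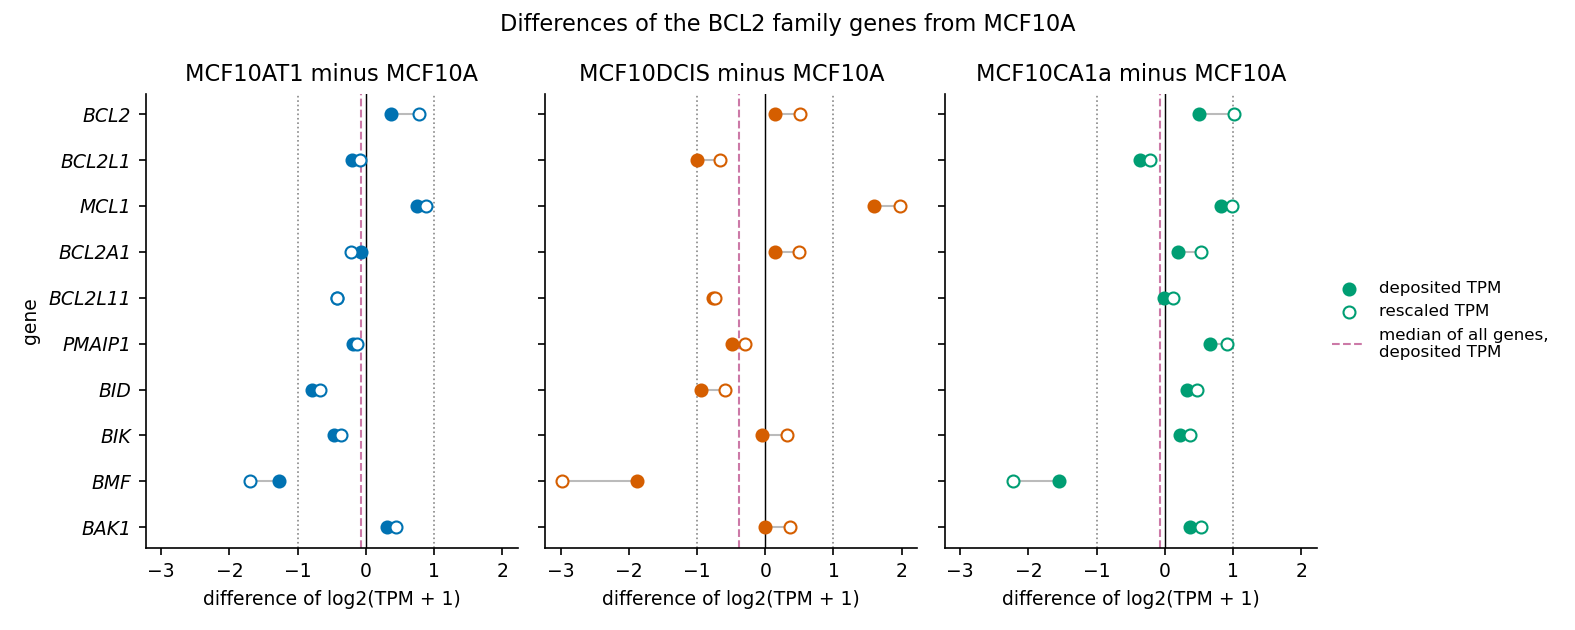
Difference of log2(TPM + 1) from MCF10A for each of the 10 genes in MCF10AT1, MCF10DCIS and MCF10CA1a, from deposited TPM (filled) and rescaled TPM (open). Dotted lines mark the rule of size and the dashed line the median of all genes on deposited TPM; BMF lies past the lower dotted line in each panel and MCL1 past the upper one in MCF10DCIS alone.

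Between the derived lines, BID and PMAIP1 were the members counted on deposited TPM, both higher in MCF10CA1a. MCF10DCIS and MCF10AT1 had 0 members apart by the rule of size, beside 3.23% of all genes higher and 7.51% lower in MCF10DCIS. MCL1 came closest with a difference of 0.85 and BCL2L1 with -0.80. On rescaled TPM, where 6.62% of all genes were higher and 7.48% lower, MCL1 was counted as higher at 1.09 and BMF as lower at -1.29. Quantile and median-of-ratios scaling each counted MCL1 alone, and the shares of all genes were not computed for them. MCF10CA1a exceeded MCF10AT1 in 1 member, BID, at 1.11 (2.21-fold higher TPM), with PMAIP1 at 0.85. No member was lower, and the shares of all genes were 6.00% higher and 3.97% lower. Rescaling brought PMAIP1 past the rule as well, at 1.02, beside 8.36% of all genes higher and 5.45% lower. MCF10CA1a exceeded MCF10DCIS in 2 members, BID at 1.26 and PMAIP1 at 1.14, beside 6.03% of all genes higher and 1.35% lower. Both stayed above the rule after rescaling, at 1.06 and 1.20 beside 6.03% of all genes higher and 2.88% lower, but were at 0.90 and 0.86 at the lowest under the other scalings tried. MCL1 was lower in MCF10CA1a than in MCF10DCIS by a difference of -0.77, with 2.17% of all genes having a lower one.

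A share within a line does not depend on how the line is scaled, and it showed a change in the make-up of the anti-apoptotic group. MCL1 supplied 45.1% of the summed TPM of the 4 anti-apoptotic members in MCF10A, and 61.5%, 83.6% and 65.2% in MCF10AT1, MCF10DCIS and MCF10CA1a. BCL2L1 supplied 54.6% in MCF10A and then 38.0%, 16.1% and 34.0%, and BCL2 and BCL2A1 each less than 1%. MCL1 RNA was thus below BCL2L1 RNA in MCF10A, with a ratio of 0.827, and above it in the derived lines, with ratios of 1.62, 5.20 and 1.92. Among the 5 BH3-only members BID was the major transcript in every line, from 62.9% in MCF10DCIS to 73.1% in MCF10CA1a. BMF supplied 4.35% in MCF10A but 1.53%, 0.131% and 0.390% in MCF10AT1, MCF10DCIS and MCF10CA1a, and BIK reached its largest share, 29.5%, in MCF10DCIS.

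**Figure D3:**
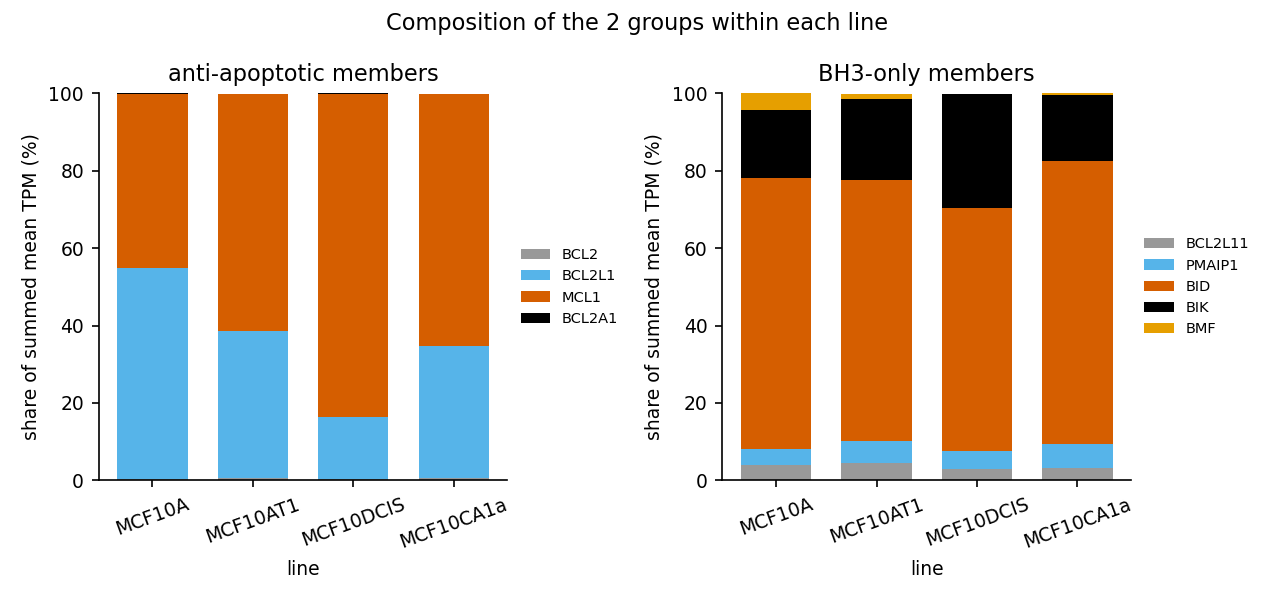
Share of each gene in the summed mean TPM of the 4 anti-apoptotic members (left) and of the 5 BH3-only members (right) in each line, in percent. The MCL1 share runs from 45.1% in MCF10A to 83.6% in MCF10DCIS, and BID is the largest BH3-only share in every line.

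The summed RNA of both groups was above MCF10A in MCF10CA1a, whereas in MCF10AT1 and MCF10DCIS the anti-apoptotic sum was above and the BH3-only sum below it. The 4 anti-apoptotic genes together had 97.2 TPM in MCF10A, 161 TPM in MCF10DCIS and 121 TPM in both MCF10AT1 and MCF10CA1a. The 5 BH3-only genes had 65.7 TPM in MCF10A, and 38.8, 37.5 and 79.2 TPM in MCF10AT1, MCF10DCIS and MCF10CA1a. The ratio of these sums was 1.48 in MCF10A and 1.53 in MCF10CA1a, but 3.12 in MCF10AT1 and 4.30 in MCF10DCIS. MCF10CA1a lay next to MCF10A in this ratio, though not in the MCL1 share. The size of the ratio rests on the genes summed. When the BH3-only genes BAD and BBC3 were added, a choice made after seeing the data, it was 0.944 in MCF10A, 1.07 in MCF10CA1a, 1.49 in MCF10AT1 and 2.51 in MCF10DCIS. The anti-apoptotic sum was not widened in the same way. BCL2L2, a further anti-apoptotic gene of the family with 7.08 to 9.05 TPM, is in none of these sums or shares. These ratios compare RNA only, since these proteins differ in stability and in the partners they bind.

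The effector genes as a pair were dominated by BAX, the pore former that waits in the cytosol. BAX was not among the 10 genes and had 130 TPM in MCF10A, with 109 TPM in MCF10AT1, 104 TPM in MCF10CA1a and 76.2 TPM in MCF10DCIS. Its ratio to BAK1 was 8.57 in MCF10A and between 5.04 and 5.71 in the derived lines. The sum of BAX and BAK1 was 145 TPM in MCF10A and 128, 91.4 and 124 TPM in MCF10AT1, MCF10DCIS and MCF10CA1a.

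Genes near each member on its chromosome were compared with it to show whether the segment around it differed as a whole. For each member the neighbours were the tested genes that start within 5 Mb of it, and differences from MCF10A on rescaled TPM were used. The BCL2L1 neighbourhood on chromosome 20 was low in MCF10DCIS, with a median of -0.62 over 66 genes, and BCL2L1 at -0.66 lay within 0.033 of that median. In MCF10AT1 the median was -0.17 and BCL2L1 was at -0.077. In MCF10CA1a the median was 0.10, and BCL2L1 at -0.22 lay below 51 of the 66 neighbours. MCL1 on chromosome 1 stood apart from its surroundings. The median of its 146 neighbours was 0.055 for MCF10AT1, 0.42 for MCF10DCIS and -0.036 for MCF10CA1a, and MCL1 exceeded 139, 139 and 134 of them.

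BMF on chromosome 15 lay below its neighbours. It passed the filter through MCF10A alone, so its direction in these comparisons was fixed by that entry, and all 3 share its level in MCF10A. Its 84 neighbours had a median of 0.013 for MCF10AT1, 0.45 for MCF10DCIS and 0.097 for MCF10CA1a, and all 84 had a higher difference than BMF in each line. BID on chromosome 22 lay below 55 of 58 neighbours in MCF10AT1 and below 52 in MCF10DCIS, and above 50 of them in MCF10CA1a. PMAIP1 on chromosome 18 lay amid low neighbours, with medians of -0.34, -0.55 and -0.22 over 29 genes, and was above 24 of them in MCF10CA1a. With the 8 genes within 2 Mb the medians were -0.01, -0.12 and 0.093, so the low neighbourhood depended on the window. Copy number was not measured, and its part in these levels was not tested.

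**Figure D4:**
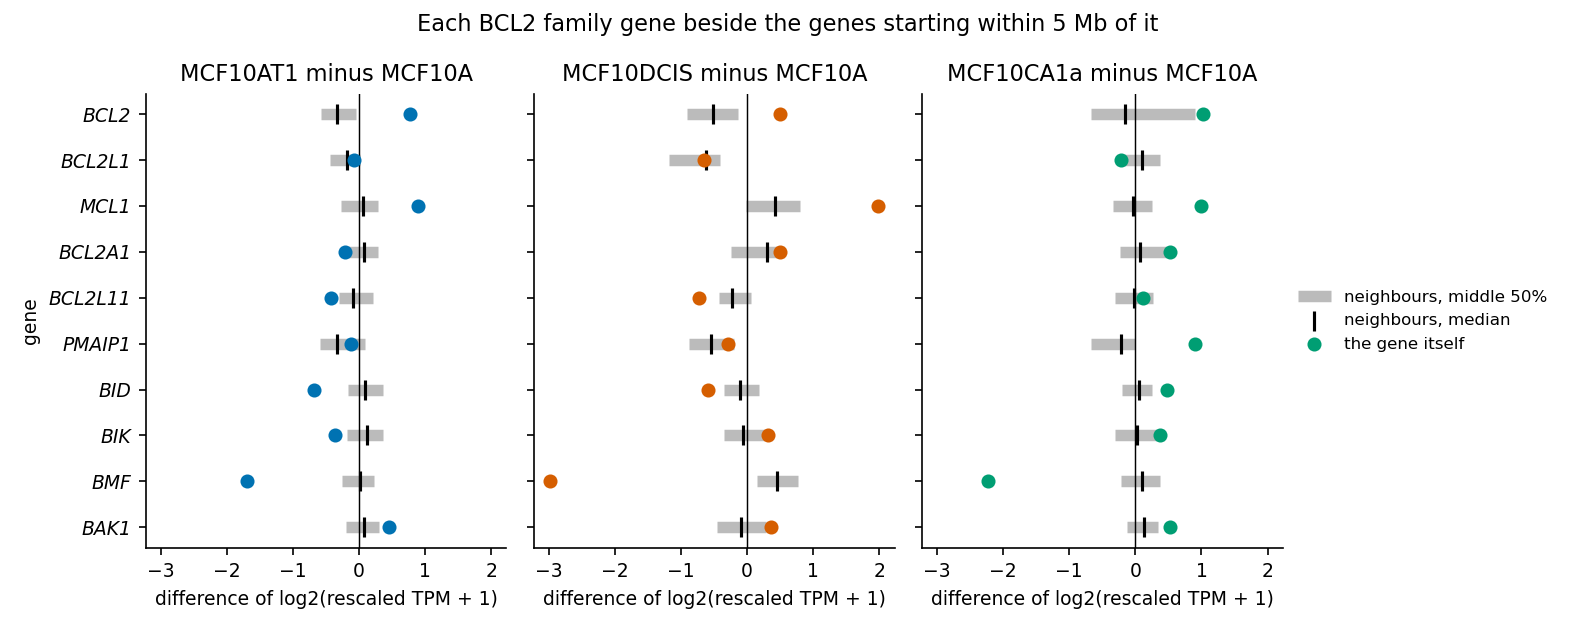
Difference from MCF10A on rescaled TPM of each member (coloured point) beside the genes starting within 5 Mb of it (black tick, median; grey bar, middle 50%), for the 3 derived lines. BMF lies left of its grey bar and MCL1 right of it in every panel. BCL2L1 falls on the median of its neighbours in MCF10DCIS but left of its grey bar in MCF10CA1a.

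The promoter of BMF is shown because BMF was the only member counted in all 3 comparisons with MCF10A. Those comparisons share its level in MCF10A, the only line through which it passed the filter. RefSeq (GRCh38.p14) gives promoter windows for 8 of the 10 members. The 250 bases before the annotated start of BMF (chr15:40108880-40109129, minus strand) are printed in the direction of transcription.
BMF promoter: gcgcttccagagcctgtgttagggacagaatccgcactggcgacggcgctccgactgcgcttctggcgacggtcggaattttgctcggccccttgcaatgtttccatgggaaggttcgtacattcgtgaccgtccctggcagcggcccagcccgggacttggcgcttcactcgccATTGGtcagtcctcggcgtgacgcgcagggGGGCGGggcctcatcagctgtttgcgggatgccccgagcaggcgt
The window has a GC content of 65.2%. The capitals mark an inverted CCAAT box, read here as ATTGG, at position -75 from the start used. They also mark a GC box (GGGCGG, the letters of an SP1 site) at position -45 from it. Both strands were searched, and the marked motifs do not overlap. Across 35116 windows of the same length, 32.0% held CCAAT and 42.6% held GGGCGG on either strand, so both are common letters in promoters. The E-box CACGTG (in 6.34% of windows), the AP-1 letters TGANTCA (6.57%), the CRE TGACGTCA (1.65%), the ETS letters CCGGAA (14.5%) and the FOXO letters TGTTTAC (2.98%) were not found in these 250 bases. These matches describe letters and not binding.

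The genes most like the 3 widest-ranging members were found by the distance between their log2(TPM + 1) profiles, each centred on its own mean over the 4 lines, among the 9290 genes with at least 5 TPM in a line. The nearest to MCL1 was ERCC1, a DNA repair endonuclease subunit, at a distance of 0.024, with 49.2, 84.6, 153 and 87.7 TPM. SH3TC1 (0.13) and PLA2G4A, a phospholipase (0.26), followed. Nearest to BMF were ITFG1 (0.072), ENDOD1 (0.081) and DNASE1 (0.093), and DNASE1 had 5.68 TPM in MCF10A and 1.80, 0.865 and 1.47 TPM in the derived lines. The pseudocount of 1 narrows the profile of a gene as low as BMF. From its highest line (MCF10A) to its lowest (MCF10DCIS), BMF went from 2.86 to 0.0491 TPM, whereas ITFG1 went from 27.6 to 7.32. The BMF matches therefore hold for log2(TPM + 1) and not for fold changes of TPM. Nearest to BID were ARHGAP29 (0.089), SLC9A3R2 (0.097) and B4GALT4 (0.12). With 4 means per profile, close profiles are easily found, and the distances are a description.

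Of 13 other BCL2 family genes, 9 reached 1 TPM, and few of them passed the rule of size against MCF10A. In MCF10AT1 none did. In MCF10DCIS none was higher and BOK, BBC3 and BNIP3L were lower, and in MCF10CA1a BNIP3L alone. By the same rule, 14.8% of all genes were lower in MCF10DCIS and 7.14% in MCF10CA1a. BBC3, which encodes the stress-induced BH3-only protein PUMA, was at 6.84 TPM in MCF10A and at 3.84, 2.85 and 5.16 TPM in the derived lines. BNIP3L, a receptor for the removal of mitochondria, had 61.1 TPM in MCF10A and 42.3, 14.1 and 26.8 TPM. After rescaling, BNIP3L remained as the only gene counted in MCF10DCIS. BAD, a BH3-only protein held inactive by growth factor signalling, was at 24.0 to 38.8 TPM and was not counted in any line. The list medians were -0.098, -0.47 and -0.14 in MCF10AT1, MCF10DCIS and MCF10CA1a, close to those of all genes.

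Downstream of the mitochondria, the 13 genes for channels, released factors, the apoptosome and caspases all reached 1 TPM. None was counted in MCF10AT1 or MCF10CA1a. In MCF10DCIS, HTRA2, a released protease that removes caspase inhibitors, was higher, and the lower genes included VDAC3, a channel of the outer membrane, and APAF1, the scaffold of the apoptosome. The shares of all genes there were 3.56% higher and 14.8% lower. HTRA2 had 9.30 TPM in MCF10A and 13.7, 20.0 and 17.6 TPM in the derived lines, while APAF1 had 4.84 TPM and then 2.62, 1.37 and 2.13 TPM. After rescaling, HTRA2 was counted in MCF10CA1a too, and VDAC3 no longer in MCF10DCIS.

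Of the 5 inhibitor of apoptosis genes, BIRC3 was lower in each derived line, with 16.2 TPM in MCF10A and 5.43, 5.23 and 4.98 TPM in MCF10AT1, MCF10DCIS and MCF10CA1a. BIRC2 was counted as lower in MCF10DCIS on deposited TPM alone. No inhibitor gene was higher. Of the 14 death receptor pathway genes, 11 reached 1 TPM. TNFRSF1A, a TNF receptor, was higher in MCF10AT1 (28.4 TPM in MCF10A, 59.7 in MCF10AT1), and TRADD and RIPK1, adaptors of that receptor, were lower in MCF10DCIS until rescaling. None was counted in MCF10CA1a. Beside both lists, 3.39% of all genes were higher in MCF10AT1. The shares of all genes lower were 5.87%, 14.8% and 7.14% in MCF10AT1, MCF10DCIS and MCF10CA1a.

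The 9 regulators and partners of MCL1, BIM and BMF included ubiquitin ligases and deubiquitinases of MCL1, FOXO factors and dynein light chains. FOXO1, a transcription factor that is known to activate BCL2L11, was at 3.13 TPM in MCF10A and 2.87 TPM in MCF10CA1a, at 10.2 TPM in MCF10AT1 and at 0.912 TPM in MCF10DCIS. It was counted as higher in MCF10AT1, as were 3.39% of all genes, and lower in MCF10DCIS, as were 14.8%. DYNLL1, the light chain that binds BIM, was lower in MCF10DCIS until rescaling, with 254 and 124 TPM. USP9X, a deubiquitinase of MCL1, was at 20.2 to 23.2 TPM in the 4 lines, and HUWE1, a ligase of MCL1, at 32.6 to 50.1 TPM, neither past the rule.

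**Figure D5:**
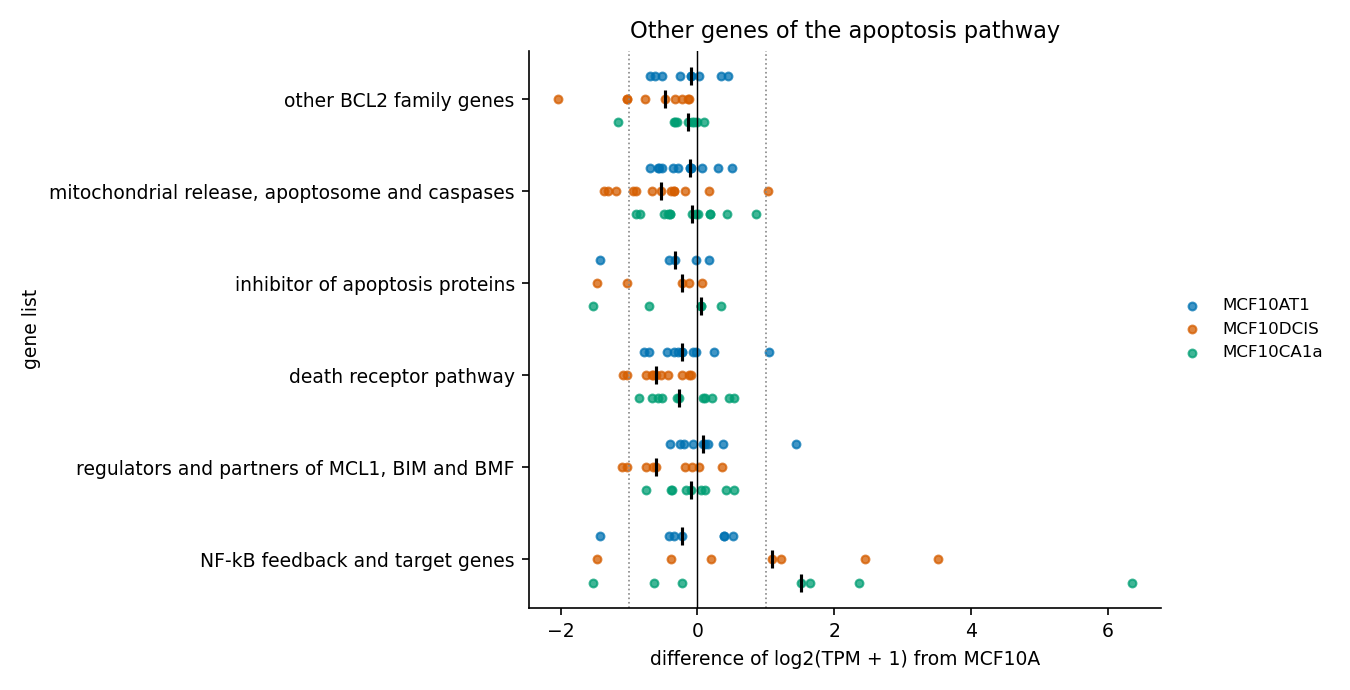
Difference of log2(TPM + 1) from MCF10A for the genes of 6 lists (1 point per gene that reached 1 TPM, black tick at the list median) in the 3 derived lines, with dotted lines at the rule of size. Most genes lie between the dotted lines. The highest points of MCF10DCIS and MCF10CA1a belong to the NF-kB list, that of MCF10AT1 is FOXO1 at 1.44, and the lowest of MCF10DCIS is BNIP3L at -2.04.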

How the data were processed

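The labels describe 12 stranded RNA-seq libraries, 3 for each of 4 lines. The deposited file gives TPM for 59427 symbols, 1 column for each line, and each column sums to 1000000. Every value above 0, multiplied by 3, fell on a 6-decimal number (tolerance 0.01 of a step), so the columns were read as means over each line's libraries. STAR, edgeR and the build hg38 are named per the submitters' processing notes. Which quantifier and annotation were used, and whether counting was stranded, is not given in the sources used here.

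From these means, log2(TPM + 1) was compared for all 6 pairs of lines over the 13108 genes with at least 1 TPM in at least 1 line, and a gene was counted at a difference of at least 1. The pseudocount of 1 understates the differences of low genes. Values per library were not used, so limma, which the design kept for that case, was not run, and there is no replicate check and no p-value. Rescaled TPM left out 5983 genes for structural or small non-coding RNAs, ribosomal proteins or mitochondrially encoded RNAs. The members and the gene lists were chosen with earlier results of these data known. All 10 members were named, with up to 4 counted genes per list with the largest differences, BAX, BBC3 and BAD, and the 3 nearest profiles of the 3 members with the widest span. USP9X, HUWE1 and BCL2L2 were chosen after their values were seen. Some listed genes are not reported here. Other alternatives were quantile normalization, scaling by the median of ratios, a pseudocount of 0.1, no filter or one at 5 TPM, a 1.5-fold rule and windows of 2 and 10 Mb.

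Positions and coding sequences are from GENCODE release 29 (GRCh38), in which 54529 of the 59427 symbols were found, and the promoter is from RefSeq (GRCh38.p14). Calculations used Python 3.11.15, numpy 2.4.6, pandas 2.3.3 and matplotlib 3.10.9. The counting was run on simulated data without noise and with large set changes. That run checks the arithmetic alone and does not bear on low genes or on spread between libraries.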

Additional observations from a re-analysis of the deposited data

How the results depend on the processing

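No member's difference was reversed past the rule of size under any alternative that could be run, and the differences of MCL1 and BMF from MCF10A kept their sign under all 5 scalings and pseudocounts (MCL1 in MCF10DCIS from 1.60 to 2.05, BMF there from -4.31 to -1.73). For MCF10DCIS against MCF10A the count of members past the rule was 3 on deposited TPM. It was 4 with a pseudocount of 0.1, where BCL2L11 was added. It was 2 under quantile normalization, median-of-ratios scaling and rescaled TPM, each without BCL2L1. A filter of 5 TPM also gave 2 there, without BMF. The counts of the other comparisons moved as follows. With a pseudocount of 0.1 they were 1 (BMF) for MCF10DCIS against MCF10AT1, 2 (PMAIP1 and BID) for MCF10CA1a against MCF10AT1 and 4 for MCF10CA1a against MCF10DCIS. With a filter of 5 TPM, which 5 members passed and BMF did not, they were 0 for MCF10AT1 and 0 for MCF10CA1a against MCF10A and 1 (BID) for MCF10CA1a against MCF10DCIS. Quantile normalization and median-of-ratios scaling each gave 1 (MCL1, higher) for MCF10DCIS against MCF10AT1 and 1 (MCL1, lower) for MCF10CA1a against MCF10DCIS, where BID and PMAIP1 were no longer counted. Rescaled TPM gave 2 (MCL1 and BMF) for MCF10DCIS against MCF10AT1 and 2 (PMAIP1 and BID) for MCF10CA1a against MCF10AT1. With a 1.5-fold rule the counts were 3, 5 and 3 for MCF10AT1, MCF10DCIS and MCF10CA1a against MCF10A, 3 for MCF10DCIS against MCF10AT1, 3 for MCF10CA1a against MCF10AT1 and 5 for MCF10CA1a against MCF10DCIS. Removing the filter moved none of the counts. The shares of all genes past the rule were computed for deposited and rescaled TPM with the main settings alone. The counts of members under the other settings therefore have no share of all genes beside them and are not read as a result about the members.

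Small differences changed sign with the scaling, namely BIK and BAK1 in MCF10DCIS and BCL2L11 in MCF10CA1a against MCF10A, BID and BAK1 in MCF10DCIS against MCF10AT1, and BCL2A1 and BIK in MCF10CA1a against MCF10DCIS. Apart from those of PMAIP1, the 27 neighbour medians moved by less than 0.25 with a 2 Mb window. No paired analysis was possible because the columns are means per line and carry no replicate numbers, and leaving out each library could not be run for the same reason. The depth is unknown, so the values of BCL2, BCL2A1 and BMF near 0 have no stated precision.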

Other observations

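Of 8 NF-kB feedback and target genes, 7 reached 1 TPM. In MCF10AT1 none was higher and BIRC3 was lower. In MCF10DCIS RELB, NFKB2, ICAM1 and CXCL8 were higher, and in MCF10CA1a TNFAIP3, RELB, NFKB2 and CXCL8, with BIRC3 lower in both. By the same rule, 3.39%, 3.56% and 5.97% of all genes were higher in MCF10AT1, MCF10DCIS and MCF10CA1a, and 5.87%, 14.8% and 7.14% lower. CXCL8, which encodes the chemokine interleukin-8, had 1.31 TPM in MCF10A and 2.02, 25.5 and 188 TPM in MCF10AT1, MCF10DCIS and MCF10CA1a. NFKB2, a subunit of the alternative NF-kB pathway, had 10.1 TPM in MCF10A and 7.77, 24.8 and 30.7 TPM in the derived lines in that order. These counts were the same on rescaled TPM. BCL2A1, another known target of NF-kB outside this list, did not reach 1 TPM in any line and could not be counted. Its listed values were 0.0536 TPM in MCF10A and 0, 0.168 and 0.205 TPM in MCF10AT1, MCF10DCIS and MCF10CA1a.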
